A study of Mus musculus with 8 samples.

Results

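The regions described here are stretches of chromatin inside protein-coding genes that were called accessible in Ubc9-depleted mouse embryonic stem cells and in no other group of the study. Overlapping regions of the 4 deposited lists were merged on chromosomes 1 to 19 and X, which gave 94048 merged regions. A merged region was kept when it overlapped a region of the Ubc9-depleted list with a deposited score of at least 100, overlapped none of the 3 other lists by 1 bp, and lay in a RefSeq protein-coding gene extended by 1 kb on each side. This left 2528 regions, which are 15.2% of the Ubc9-depleted regions of that score in genes and are called new intragenic regions below. Presence, absence and score chose them, so these values are given as a description with no test.

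The assay was ATAC-seq, whose transposase cuts and tags accessible DNA, applied to 8 samples of 4 groups with 2 replicates each. Ubc9-depleted cells are v6.5 embryonic stem cells that carry a Tet-off Ubc9 depletion system and received doxycycline for 72 hours. They are set against the Ubc9-control of the same line. H1-TKO cells lack both copies of 3 linker histone genes, which are H1.2, H1.3 and also H1.4, and are set against H1-WT cells. Per the labels the H1 cells were taken from an earlier publication, and all cells had been kept for 4 passages in 2i/LIF medium, which holds them in naive pluripotency. Doxycycline is labelled for the depletion only, so effects of the drug and of the loss of Ubc9 cannot be told apart. The replicates of a group were combined into a single list before deposit, so there is no spread between replicates and no test or p-value for any value below. Intervals are exact 95% intervals and cover counting error only. The deposited score is read as minus 10 times log10 of the peak caller's p and ranks regions within a list. How the replicates' scores were combined is not stated, so a score may not be the p of a single call. Of the new intragenic regions, 91.6% had scores on multiples of 0.005, while others, such as 153.9975 for a region of Map3k5, did not.

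Ubc9 is the single conjugating enzyme that attaches SUMO, a small ubiquitin-like protein, to its targets. SUMO is found on many chromatin proteins, among them KAP1 and histone methyltransferases that keep endogenous retroviruses, germline genes and genes of the early embryo silent in embryonic stem cells. Genes of the 2-cell embryo, such as the Zscan4 cluster and relatives driven by retroviral promoters, are normally active in only a small fraction of cultured stem cells. Linker histones bind nucleosomes and compact chromatin by another route, and the H1 lists serve here only to remove regions that open without Ubc9 depletion.

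The deposited lists held 48730 regions in Ubc9-depleted, 46847 in Ubc9-control, 58039 in H1-TKO and 55489 in H1-WT cells, and the read depth behind them is unknown. Of the 36 pluripotency genes looked up, 30 had a region within 1 kb in Ubc9-depleted, 34 in Ubc9-control, 31 in H1-TKO and 34 in H1-WT cells. Of the 22 fibroblast genes looked up as a check for feeder cells, 8, 9, 9 and 8 had one in the same 4 lists.

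Most new regions lie deep inside genes, but the few at gene starts allow the underlying sequence to be shown. The promoter windows of 6 genes are printed below, each 250 bases before to 50 bases after the start of a RefSeq transcript (GRCm38.p6, the coordinates of mm10), 5′ to 3′ on the strand of the gene. BB287469 (chr12:87816327-87816626) and Gm4027 (chr12:87618659-87618958), both on the plus strand, are predicted genes at the highest-scoring new regions that cover a gene start. Zscan4f (chr7:11397665-11397964) and Zscan4c (chr7:11005495-11005794), both on the plus strand, encode zinc-finger proteins of the 2-cell embryo. Hormad1 (chr3:95559429-95559728), an axis protein of meiotic chromosomes, and Meioc (chr11:102665335-102665634), which keeps germ cells in meiotic prophase, are both on the plus strand and stand for germline genes. Capitals mark matches on either strand to the motifs searched. In BB287469 and Gm4027 these are matches to GGATTA, the core bound by OBOX-type homeodomains. Both Zscan4 windows match the AP-1 motif TGANTCA and the NR5A motif AAGGTCA, and Zscan4f also matches the GATA motif AGATAA and the CTCF core AGGGGGC. Hormad1 matches the E-box CACGTG, the E-box CAGCTG and the ZIC motif CAGCAGG, and Hormad1 and Meioc both match the E2F motif TCCCGC.
BB287469: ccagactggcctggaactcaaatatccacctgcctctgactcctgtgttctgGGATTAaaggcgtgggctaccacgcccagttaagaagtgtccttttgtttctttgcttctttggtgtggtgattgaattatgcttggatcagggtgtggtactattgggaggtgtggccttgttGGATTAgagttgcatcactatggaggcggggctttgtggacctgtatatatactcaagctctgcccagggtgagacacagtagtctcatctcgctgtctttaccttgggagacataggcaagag
Gm4027: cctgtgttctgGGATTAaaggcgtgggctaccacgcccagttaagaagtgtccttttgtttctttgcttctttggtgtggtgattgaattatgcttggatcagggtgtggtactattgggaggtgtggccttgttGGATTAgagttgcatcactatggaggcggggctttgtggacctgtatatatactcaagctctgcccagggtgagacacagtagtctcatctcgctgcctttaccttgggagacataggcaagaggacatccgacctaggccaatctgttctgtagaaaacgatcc
Zscan4f: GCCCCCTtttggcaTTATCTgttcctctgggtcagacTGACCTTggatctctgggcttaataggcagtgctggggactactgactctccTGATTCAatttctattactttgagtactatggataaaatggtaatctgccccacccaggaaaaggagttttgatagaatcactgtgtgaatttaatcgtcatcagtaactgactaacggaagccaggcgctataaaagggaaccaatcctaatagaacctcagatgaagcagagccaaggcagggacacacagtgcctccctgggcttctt
Zscan4c: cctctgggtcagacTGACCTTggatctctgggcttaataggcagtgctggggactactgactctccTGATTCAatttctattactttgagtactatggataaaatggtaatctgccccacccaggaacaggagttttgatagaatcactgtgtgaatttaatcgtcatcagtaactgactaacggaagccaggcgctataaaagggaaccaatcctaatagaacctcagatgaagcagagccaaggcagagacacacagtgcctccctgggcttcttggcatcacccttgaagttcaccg
Hormad1: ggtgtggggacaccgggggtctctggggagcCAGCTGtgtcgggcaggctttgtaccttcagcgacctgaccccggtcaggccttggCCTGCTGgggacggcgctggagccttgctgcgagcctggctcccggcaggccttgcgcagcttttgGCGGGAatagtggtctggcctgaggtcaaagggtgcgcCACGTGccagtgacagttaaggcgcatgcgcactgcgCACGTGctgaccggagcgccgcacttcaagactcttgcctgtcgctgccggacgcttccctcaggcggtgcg
Meioc: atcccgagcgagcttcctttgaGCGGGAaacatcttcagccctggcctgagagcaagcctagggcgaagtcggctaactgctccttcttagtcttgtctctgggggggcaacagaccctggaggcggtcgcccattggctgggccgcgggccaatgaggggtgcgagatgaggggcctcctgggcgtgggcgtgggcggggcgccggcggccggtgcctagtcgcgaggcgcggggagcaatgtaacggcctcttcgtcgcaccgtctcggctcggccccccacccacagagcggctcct

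Several of these windows are copies of one another. With the windows slid against each other by up to 150 bases, without gaps, BB287469 and Gm4027 were identical at 258 of 259 bases and Zscan4f and Zscan4c at 275 of 277. On chromosome 12, Gm2046 also matched BB287469 and Gm4027 at 98.35% and 97.8% of the bases compared, while Gm10264, a further predicted gene there with a new region at its start, matched the other windows at 32.2% to 35.0%. The windows of the 4 Zscan4 genes with a new region were 95.3% to 99.3% identical in all 6 pairs. On chromosome 10, the windows of 6 predicted genes (Gm8764, Gm21304, Gm21312, Gm21293, Gm20765 and Gm4340) were 99.7% to 100% identical. Reads from such copies may not be told apart, so it is uncertain which copy gave a region. The Zscan4 and BB287469 windows are poor in CpG, with an observed over expected CpG ratio of 0.186 in Zscan4f and 0.225 in BB287469. Those of Hormad1 and Meioc are rich in it, with ratios of 0.713 and 0.805 and a GC content of 67.3% and 68.3%.

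New regions made up a smaller part of the accessible chromatin inside genes than outside. Of the 16665 regions of score 100 or more in genes of Ubc9-depleted cells, 15.2% were in no other list, against 49.9% of the 15059 such regions outside genes and 31.6% of all 31724. The same count in the Ubc9-control list found 431 of 18578 regions in genes, 2.32%, and 4.62% outside genes. Of the 10037 new regions, 25.2% (24.3 to 26.0) were in genes, against 65.2% (64.5 to 65.8) of the depleted regions of score 100 or more that another list shares. For the 988 Ubc9-control regions of that score in no other list, the share in genes was 43.6% (40.5 to 46.8). Extended genes make up 40.5% of the span of these chromosomes. New regions therefore numbered 2.37 per Mb inside genes (2.28 to 2.47) and 4.80 per Mb outside (4.69 to 4.90).

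By the rule no new region touches a region of the other lists, and the gaps to them are given as a description. The median gap to the nearest region was 20.9 kb for the Ubc9-control, 17.95 kb for the H1-TKO and 18.6 kb for the H1-WT list. For 1991 of the 2528 (78.8%) no region of another list lay within 5 kb, and 29 had one within 500 bp. The score limit set their number more than this distance did: without a minimum there were 5255, and with a minimum of 200 there were 699.

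New intragenic regions were narrow and of moderate score. Their median width was 477 bp (467 to 487), with quartiles of 374 and 718 bp, against 623 bp (615 to 631) for the 14137 shared depleted regions in genes. Median scores were 147 and 238 for these sets, and the new regions outside genes, with 485 bp and 155, resembled those inside. A separate group of wide regions stood out in the widths. While 45 regions (1.78%) were over 1200 and up to 1600 bp wide, 97 (3.84%) were wider than that, with a median of 1833 bp and quartiles of 1763 and 1935 bp. New regions outside genes had the same order, with 1.21% in the first of these width classes and 5.45% in the second. Among the shared regions in genes the order was the other way, with 7.34% in the first and 2.84% in the second. The classes were chosen after the widths were seen.

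**Figure D1:**
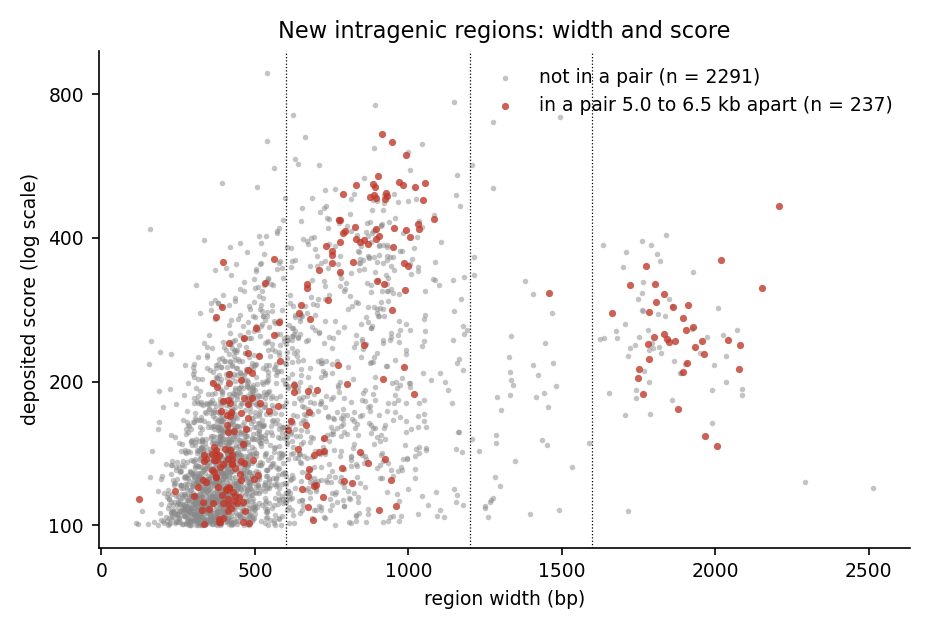
Width in bp and deposited score (log scale) of each of the 2528 new intragenic regions, with the 237 that belong to a pair 5.0 to 6.5 kb apart in red. Dotted lines mark the width classes at 600, 1200 and 1600 bp; a cloud of 97 regions lies beyond 1600 bp, apart from the rest.

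Within genes, many new regions came in pairs at a set distance. Of 345 neighbouring new regions less than 20 kb apart, centre to centre, 119 (34.5%) were 5.0 to 6.5 kb apart, a window chosen after the distances were seen. Both regions of every one of these pairs lay in the same gene, and the pairs took in 237 new regions of 122 genes. Each 0.5 kb bin of that window held 6.96% to 17.97% of the neighbouring new regions, against 2.62% to 3.11% of the 2863 neighbouring shared regions in genes. Smaller peaks among the new regions lay at 1.0 to 1.5 kb, with 23 neighbours, and at 4.0 to 4.5 kb, with 26.

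**Figure D2:**
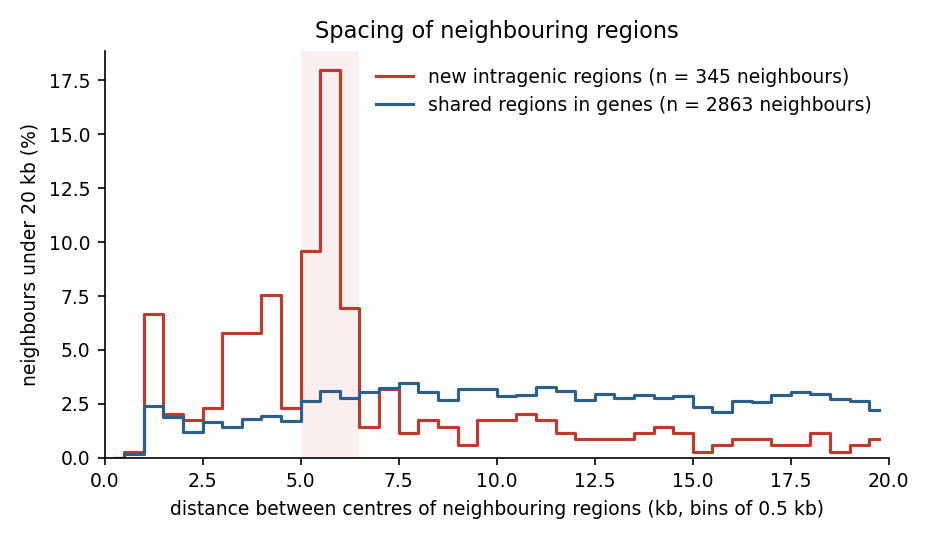
Distance between the centres of neighbouring regions in bins of 0.5 kb, as a percentage of all neighbours under 20 kb apart, for new intragenic regions (red, 345 neighbours) and shared regions in genes (blue, 2863 neighbours). The shaded window from 5.0 to 6.5 kb holds 34.5% of the red neighbours, while the blue line is nearly flat.

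Counted another way, 439 new intragenic regions (17.4%, 15.9 to 18.9) had any region of the Ubc9-depleted list centred 5.0 to 6.5 kb away. In the windows on either side, 3.5 to 5.0 and 6.5 to 8.0 kb, 8.15% and 9.49% had one. A partner at 5.0 to 6.5 kb was found for 23.8% (22.8 to 24.7) of the new regions outside genes and 7.72% (7.28 to 8.17) of shared regions in genes. Measured against the Ubc9-control list, 4.59% of the new intragenic regions had a partner at that distance. By the rule no new region overlaps that list, so a partner that is itself new cannot be counted there. Of the 431 regions in genes found only in the Ubc9-control list, 9.28% (6.71 to 12.4) had a partner in that list. At 3.5 to 5.0 and 6.5 to 8.0 kb, 5.57% and 10.2% of these control-only regions had one. For shared regions in genes these shares were 4.76% and 8.86%, and for new regions outside genes 10.7% and 11.6%. In the Ubc9-depleted list, partners at this spacing were thus present for new regions both inside and outside genes. Of the 97 regions wider than 1600 bp, 49 had a partner in the Ubc9-depleted list, 50.5% (40.2 to 60.8).

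The members of a pair were unequal. The wider region had a median width of 922 bp and the narrower of 426 bp, and the wider had the higher score in 97 of 119 pairs (81.5%, 73.4 to 88.0), with median scores of 305 and 141. The pairs fell into classes by the width of the wider region. In 67 pairs it measured over 600 and up to 1200 bp, with a median distance of 5500 bp and quartiles of 5447 and 5595 bp. In 36 it was wider than 1600 bp, with a median distance of 5956 bp and quartiles of 5895 and 6030 bp. In 15 both regions were at most 600 bp wide and 5907 bp apart in the median. The 1 pair left had a wider region of 1458 bp.

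The pairs also had a direction relative to the gene. In 90 pairs the strand of the gene was known, and the wider region lay downstream in 64, 71.1% (60.6 to 80.2). It did so in 35 of 47 pairs in genes on the plus strand and in 29 of 43 on the minus strand. The share was 85.2% (66.3 to 95.8, 23 of 27) where the wider region exceeded 1600 bp. It was 64.0% (49.2 to 77.1, 32 of 50) where that region measured over 600 and up to 1200 bp. Where both were at most 600 bp wide it was 66.7% (34.9 to 90.1, 8 of 12). The intervals of these last classes take in equal shares. So does that of neighbours 6.5 to 20 kb apart, with 54.7% (41.7 to 67.2, 35 of 64). Without a score minimum there were 258 pairs and with a minimum of 200 there were 19. Whether the pairs coincide with repeat elements was not tested, since no repeat annotation was used.

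**Figure D3:**
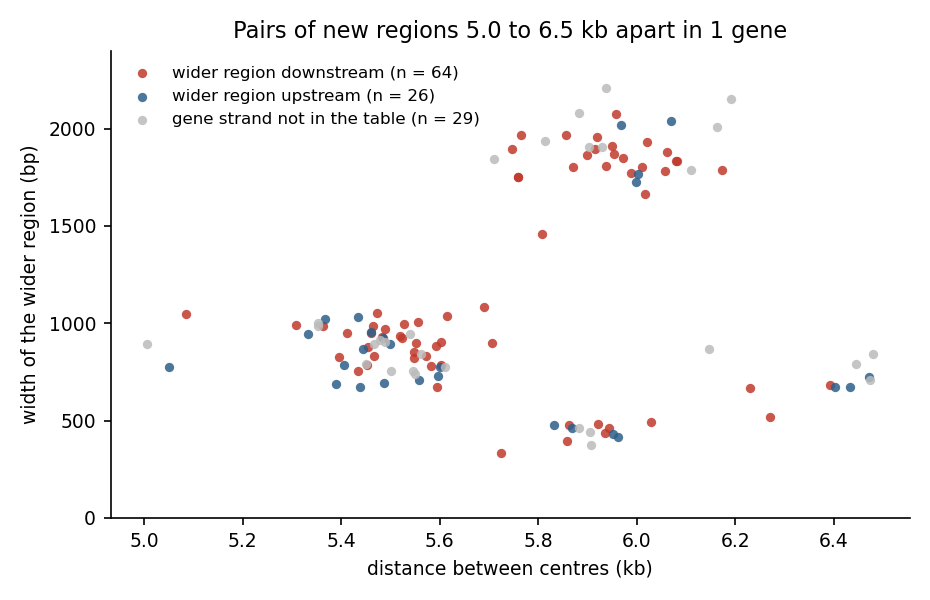
Distance between centres in kb and width of the wider region in bp for the 119 pairs, coloured by whether the wider region lies downstream (red, 64) or upstream (blue, 26) in the gene, or its strand is not in the table (grey, 29). Pairs gather near 5.5 kb with a wider region under 1200 bp, and near 6.0 kb with a wider region over 1600 bp or both regions narrow.

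Gpc6, a glypican that carries heparan sulfate on the cell surface, had the most new regions, 10, and held 3 such pairs. From left to right along chromosome 14, their widths and scores were 894 bp at 417 and 401 bp at 145, then 414 bp at 199 and 793 bp at 413, then 393 bp at 116 and 914 bp at 661. The distances within these pairs were 5006, 5450 and 5480 bp, so the 3 pairs are alike in size but not in order. In all, Gpc6 had 19 regions in Ubc9-depleted cells, against 14 in Ubc9-control, 21 in H1-TKO and 14 in H1-WT cells. Casp8, the initiator caspase of death-receptor signalling, had a pair 5412 bp apart, of 854 bp at 238 and 948 bp at 636. Its 3 regions in Ubc9-depleted cells compare with 0 in each of the 3 other lists. Lsamp, an adhesion protein of limbic neurons, had a narrow region of 478 bp (score 212) followed downstream by one of 1808 bp (score 293), 5938 bp apart.

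The highest-scoring new regions lay in genes of unrelated function. The highest of all was in Cep128 (chr12:91147664-91148202, score 885), a gene for a centriolar protein, and lay 96.8 kb or more from any region of another list. Cep128 had 5 new regions and 13 regions in all in Ubc9-depleted cells, against 6 in Ubc9-control, 7 in H1-TKO and 6 in H1-WT cells. Next came a region shared by the predicted gene Gm46913 and Tbc1d1, a Rab GTPase-activating protein (chr5:64247448-64248595, score 771), then Fyb, an adaptor of T cells (chr15:6607833-6608725, 761), and Fank1, a testis gene (chr7:133865567-133866191, 724). Mtus2 (715), St6galnac3 (699), Gpc6 (661), Tasp1 (649.6), Ptprn2 (639), Casp8 (636), Cdcp1 (629) and Gsap (616) completed the highest 12. Of these 12 regions 11 lay over 1 kb from a gene end. The widest regions, in Gm38510 (2514 bp), Asic4 (2294 bp) and Psd3 (2207 bp), had scores of 119.5, 123 and 466. At the limit of 100, regions in Ralgds (100.01), Ctsr (100.05) and Sh3bp5 (100.07) were just inside, and regions in Fto (99.98), Antxr1 (99.975) and Tmem132c (99.97) just outside.

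Unlike shared regions, new regions were spread along the gene body. Of 1906 that lay in a single gene of known strand, with the gene cut into 10 equal parts, 12.9% were in the part nearest the start, each of the following 7 parts held 8.92% to 10.8%, and the last parts held 7.82% and 5.61%. Only 3.36% lay in the 1 kb before the start and 1.57% in the 1 kb after the end. Of 9874 shared regions, 42.8% were in the part nearest the start and 18.8% before it. Within 1 kb of either end of a gene there were 375 new regions (14.8%, 13.5 to 16.3) and 64.5% (63.7 to 65.3) of the shared ones. New regions at gene ends were somewhat wider than those further inside, with medians of 557 and 467 bp, and had similar scores, with medians of 143 and 148. RefSeq long non-coding RNA genes overlapped 4.15% of the new and 11.01% of the shared regions.

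**Figure D4:**
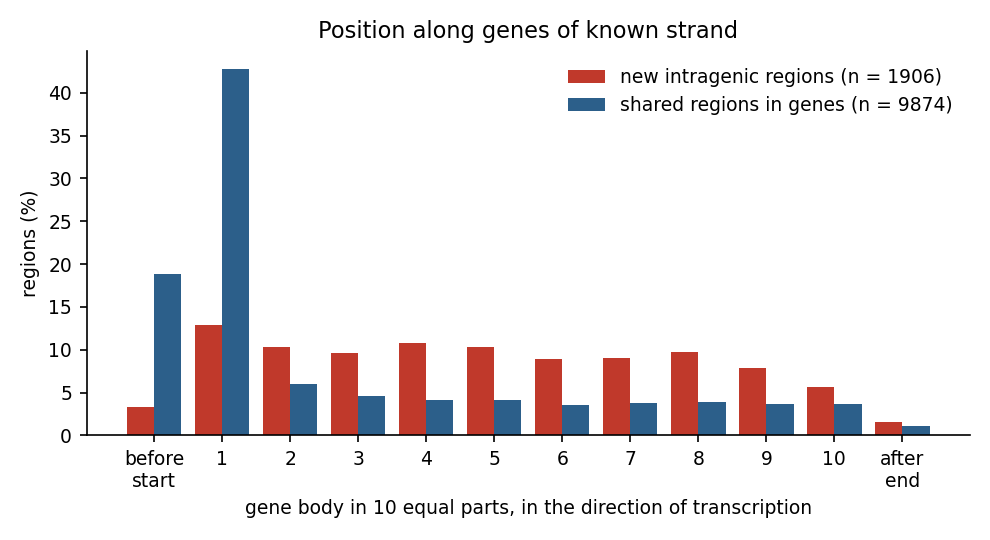
Share of regions before the start, in each of 10 equal parts of the gene body and after the end, for 1906 new intragenic regions (red) and 9874 shared regions in genes (blue), within 1 kb of genes of known strand. The blue bars peak in the part nearest the start with 42.8%, and the red bars lie between 1.57% and 12.9%.

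A new region was found in 1915 of 21631 protein-coding genes, 8.85%, and long genes had most of them. Of these genes 1456 had 1 new region, 307 had 2 and 152 had 3 or more. Their median length was 84.5 kb, against 17.3 kb for all genes, and 419 kb for those with 3 or more. The share with a new region was 1.92% among genes under 5 kb and 69.2% among those over 500 kb. Per Mb of gene the number was nearly level, at 2.10 to 2.70 from 5 kb upward, and higher, at 4.56 (3.69 to 5.57), in genes under 5 kb. In 339 genes (17.7%, 16.0 to 19.5) no region of the 3 other lists lay in the gene or within 1 kb of it. These were short, with a median of 15.3 kb, and 27.2% of all genes had no region in those lists.

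After Gpc6, the genes with most new regions were Etl4 with 9, whose scores ran from 102 to 183, and a group with 7. In this group were Lsamp, the carboxypeptidase gene Agbl4, and the predicted genes Gm37013, Gm38666 and Gm38667, which span the protocadherin cluster of chromosome 18 and share the same 7 regions. Alk, a receptor tyrosine kinase, Pcdh15, a protocadherin of hair cells, and 2210408I21Rik had 6 each. Alk had 14 regions in Ubc9-depleted cells, against 5 in Ubc9-control, 10 in H1-TKO and 8 in H1-WT cells. Etl4 went the other way in all, with 28, against 30, 41 and 36.

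The rate varied from chromosome to chromosome. The number per Mb of gene was highest on chromosome 13, at 2.89 (2.40 to 3.45), and lowest on X, at 1.42 (1.10 to 1.796), with a median of 2.32 over the 20 chromosomes. The top regions of these chromosomes were in Cntnap3 (score 520.4) and in Spaca5, a sperm gene (score 458). On X, shared regions in genes were also at their lowest, at 8.53 per Mb.

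Genes of the 2-cell embryo had new regions although they are short. A new region was found in 11 of the 53 members known to RefSeq, 20.8% (10.8 to 34.1), against 8.85% of all genes, and per Mb of gene there were 17.2 (8.59 to 30.8). In all, 28 of the 53 had a region in Ubc9-depleted and 16 in Ubc9-control cells. On chromosome 7, Zscan4b, Zscan4c, Zscan4d and Zscan4f each had 1 new region and no region in the 3 other lists. Their scores were 306 in Zscan4f, 298 in Zscan4c, 279 in Zscan4d and 185 in Zscan4b. These regions were wide, at 1763, 1750, 1467 and 1742 bp, and each covered the gene start. The others were Gm2016 (319), Gm2022 (249), Gm4340 (162), Gm21761 (148.5), Zfp352 (131), a zinc-finger gene of the 2-cell stage, Gm20767 (113) and Rnf168 (112), a ubiquitin ligase of the DNA damage response. Most of these are members of multi-copy families. The intervals count such copies as separate genes. This list, like the other gene lists, was chosen with earlier results of these data known. Without a score minimum 17 members had a new region, and with a minimum of 200 there were 5.

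Some genes of the germ line and meiosis also had new regions. Of 37 members 7 had one, 18.9% (7.96 to 35.2), against 8.85% of all genes, or 5.53 per Mb (2.53 to 10.5). Mov10l1, a helicase of the piRNA pathway, had 3, with scores up to 275, and no region in the 3 other lists. Hormad1 had 1 at its start (score 214), beside 1 region in each other list elsewhere in the gene. Meioc (209) and Syce1 (161), a component of the synaptonemal complex, each had 1 new region and no region in any other list. Spo11, which makes the DNA breaks of meiosis, had 121, the piRNA helicase Tdrd9 had 110.4, and Rnf212, a crossover factor, had 101. The count was 10 without a score minimum and 3 with a minimum of 200.

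Neuronal adhesion, channel and guidance genes are long and held many new regions, but no more per Mb than genes as a whole. A new region was found in 27 of 45 synaptic adhesion genes, led by Opcml (score 512), Lrrtm4 (486), Magi2 (422) and Csmd2 (395), in 25 of 52 ion channel and receptor genes, led by the GABA receptor genes Gabrg3 (420.0) and Gabrb1 (398), and in 14 of 41 axon guidance genes, led by Robo2 (423) and Dcc (412). Per Mb of gene these lists had 1.70 (1.33 to 2.15), 2.11 (1.58 to 2.77) and 1.45 (0.871 to 2.26), below or near the 2.37 per Mb over all genes. Median lengths were 903, 428 and 189 kb.

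Of the 54 Wnt pathway genes 10 had a new region, 18.5% (9.26 to 31.4), against 8.85% of all genes, or 3.71 per Mb (1.97 to 6.34), an interval that takes in the 2.37 per Mb over all genes. The count was 19 without a score minimum, 1 with a minimum of 200, and 16 when absence from the Ubc9-control list alone was asked. Among the ligands these were Wnt9a (233), Wnt7a (194), Wnt4 (135) and Wnt3 (113), and among receptors and their regulators Znrf3 (162), Lrp5 (134) and Ror1 (105). The secreted inhibitors Sfrp5 (118) and Dkk3 (100.3) and the kinase Gsk3b (102) had one too. Wnt4 had no region in any other list. Imprinted genes had 7 of 38 (18.4%), among them Calcr (217), Rtl1 (190.2) and Kcnq1 (161), at 2.37 per Mb, the rate over all genes, and 1 of 38 with a minimum of 200. The Hox clusters had 3 of 39 (7.69%, 1.615 to 20.9), in Hoxd11 (194), Hoxd8 (154) and Hoxa10 (105). Hox genes are short, with a median of 3.74 kb, and 1.92% of all genes under 5 kb had a new region. Per Mb there were 7.93 (1.635 to 23.2), an interval that takes in the 2.37 per Mb over all genes.

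Other lists lay below, near or slightly above the 8.85% of all genes. In the pluripotency list 1 of 36 genes (2.78%) had one, Sall4 (119.8), and in the formative list 1 of 20 (5.00%), the DNA methyltransferase Dnmt3b (134), which had no region in any other list. None of 22 fibroblast genes and none of 29 interferon-response genes had one, which by the interval allows up to 15.4% and 11.9%. In the SUMO list there were 3 of 24 (12.5%): Sp100, a PML body protein (491), Nsmce2, a SUMO ligase of the Smc5/6 complex (150.95), and the SUMO protease Senp2 (123). Of the 10 linker histone genes only H1f0 (117) had one. Trophectoderm genes had 4 of 28 (14.3%) and primitive endoderm genes 2 of 26 (7.69%). Heterochromatin regulators had 3 of 36 (8.33%) and polycomb regulators 4 of 31 (12.9%). These counts are small, and the share over all genes lies within the interval of each.

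**Figure D5:**
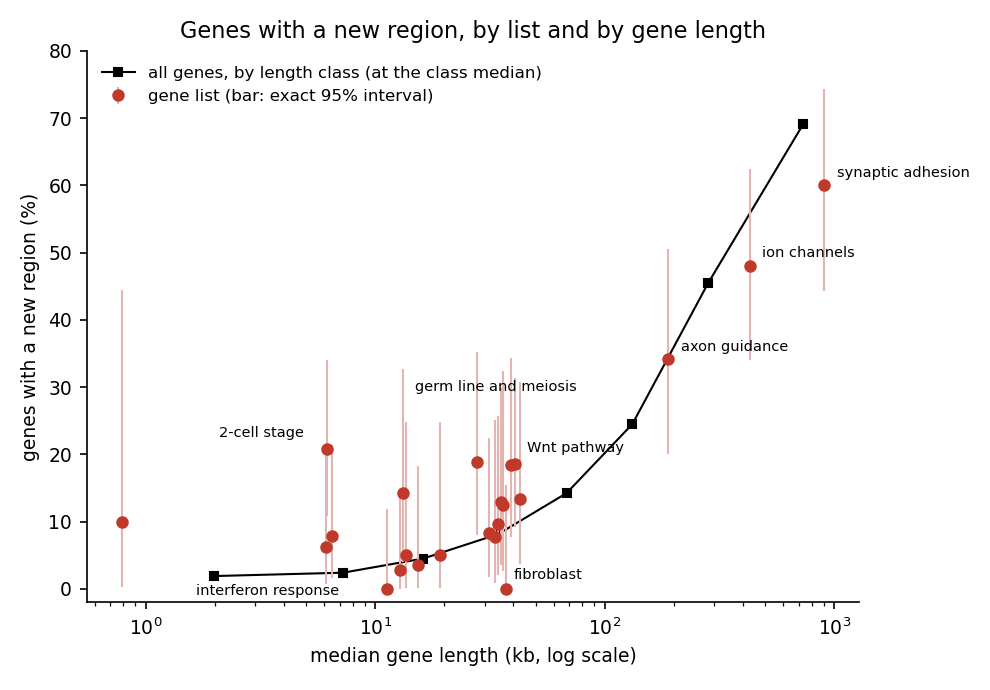
Percentage of genes with a new region for 23 gene lists (red, with exact 95% intervals) and for all genes in 8 classes of length (black), against median gene length in kb on a log scale. The long neuronal lists lie along the black line, and the 2-cell list, at 20.8%, lies above genes of its length.

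Gene families grouped by symbol are read against 8.85% of all genes and 2.37 per Mb. Vomeronasal receptors, the pheromone receptors of rodents, had a new region in 14 of 355 genes (3.94%), or 4.12 per Mb (2.44 to 6.52), led by Vmn2r11 (436). All but Vmn1r56 (1.83 kb) were Vmn2r genes, 12.6 to 79.3 kb long. Olfactory receptors had 4 of 1110 (0.360%), or 0.920 per Mb (0.251 to 2.35), led by Olfr1055 (330.1). Zinc-finger genes named Zfp had 36 of 397 (9.07%, 3.10 per Mb), and dynein motor genes 11 of 26 (3.64 per Mb, 2.08 to 5.91), led by Dnah6 (363). Genes known only by Gm or Rik symbols had 110 of 1449, 7.59% (4.28 per Mb, 3.603 to 5.05). Some of these sets may contain closely similar copies, which was not tested here.

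At gene starts, new regions fell on promoters rich in GC. A new region overlapped the promoter window of 230 of 17274 protein-coding genes with a window, 1.33%, and 226 of the new regions did so. On the chromosomes with windows that is 9.26% (8.14 to 10.5) of the new regions, against 57.1% (56.2 to 57.9) of shared regions in genes. The 283 windows overlapped had a median GC content of 69.0% and a median CpG ratio of 0.879. The 9039 windows accessible in all 4 lists had 62.3% and 0.801, the 283 accessible only in Ubc9-control cells 54.7% and 0.468, and all 32619 windows 53% and 0.387. The CpG-poor windows of Zscan4 and BB287469 printed above are thus a minority among those overlapped, of which 84.5% had a CpG ratio of at least 0.6.

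Motif matches in these windows are counts of letters on both strands and are not sites of binding. Some windows are alternative starts of the same gene and overlap, so an interval that takes them as separate is too narrow. The ETS motif CCGGAAG was in 8.13% of windows overlapped by a new region, 21.1% of windows accessible in all 4 lists and 8.92% of all windows. The E2F motif TCCCGC, added after the germline genes were seen, was in 43.5%, 40.4% and 20.1%, and the CTCF core AGGGGGC in 22.6%, 17.7% and 10.7%. The SOX motif CATTGTT was in 0 of 283 overlapped windows, which by the interval allows up to 1.295%, and the OCT motif ATGCAAA in 1.06%, against 1.55% and 3.57% of windows accessible in all 4 lists and 3.77% and 4.66% of all windows. The GGATTA of BB287469 and Gm4027 was in 7.07%, 4.82% and 7.04%. The E-box CACGTG of Hormad1, also added later, was in 10.6%, 10.7% and 7.20%. The sets of windows differ in GC content, as given above, and its part in the shares was not tested. The E-box CAGCTG and the AP-1, GATA, NR5A, TEAD and ZIC motifs were searched as well. CAGCTG was in 18.4% of overlapped windows, 13.6% of windows accessible in all 4 lists and 16.4% of all windows. TGANTCA was in 3.89%, 3.52% and 7.84% of the same sets, AGATAA in 4.95%, 4.36% and 11.2%, and AAGGTCA in 3.53%, 2.57% and 4.71%. GGAATG was in 9.19%, 11.03% and 14.6%, and CAGCAGG in 8.13%, 9.61% and 10.6%. For TGANTCA and AGATAA the overlapped windows were thus close to those accessible in all 4 lists.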

How the data were processed

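Per the submitters' processing notes, the authors' tools were Bowtie2, MACS 1.4.2-1, Picard and CASAVA 1.8.2, and the build was mm10. Their settings, including any shift of reads for the transposase, are not given in the sources used here. A deposited list holds positions and a score, and per the labels combines both replicates. If scores were the p of a single call, the lowest deposited score, 50, would stand for a p of 1e-05. Without counts the depth is unknown, and deeper sequencing calls more regions. Regions were merged and intersected in Python 3.11.15 (pandas 2.3.3, scipy 1.17.1), a step tested on simulated data. Genes and promoter windows were RefSeq's for GRCm38.p6, and 17274 of 21631 genes had a window and thus a strand.

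The members, the 23 gene lists and the rules were chosen with earlier results of these data known. Genes named are the 12 highest-scoring regions, the 10 genes with most new regions, the 3 widest regions, the 3 on each side of the score limit, the top region of the chromosomes with the highest and lowest rate, and the highest-scoring members of each list. Genes named beyond these, Rnf168 and Lsamp's pair among them, the motifs CACGTG and TCCCGC, and the printed windows were chosen after values were seen. Shares carry Clopper-Pearson and rates Poisson intervals. A few picked genes are left out of the text.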

Additional observations from a re-analysis of the deposited data

Results flagged for a closer look

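Chromosome Y lies outside the rule and entered no comparison above. Of 223 regions of score 100 or more there in Ubc9-depleted cells, 125 were in no other list (exact Poisson interval 104 to 149). Of the 125, 16 lay in genes. The same count was 2 of 86 in Ubc9-control, 2 of 50 in H1-TKO and 9 of 80 in H1-WT cells, none of these in genes. The result is set apart because it appears in data outside the main comparison and exceeds the count in control cells. In the main comparison, 49.9% of such Ubc9-depleted regions outside genes, and 31.6% of all, were in no other list. A large share of regions found only in Ubc9-depleted cells is therefore not particular to chromosome Y. Reads from the many copied sequences of this chromosome may not be told apart, and their part in the count was not tested.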

How the results depend on the processing

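The score minimum moved most values. With no minimum there were 5255 new intragenic regions in 3511 genes, 434 of them with 3 or more. The share in genes was 28.6%, the median width 381 bp, the median gene length 67.2 kb, the highest rate 5.97 per Mb (chromosome 5) and the pairs 258, with the wider region downstream in 60.7% (53.5 to 67.6) of those with a strand. With a minimum of 150 there were 1217 regions in 1025 genes, 37 genes with 3 or more, and a share in genes of 23.5%. With a minimum of 200 there were 699 regions in 623 genes, 20 genes with 3 or more, a share in genes of 22.3%, a median width of 741 bp, 12.2% at gene ends, a median gene length of 116 kb, a highest rate of 0.956 per Mb (chromosome 7), and 19 pairs, of which 92.3% (64.0 to 99.8) of those with a strand had the wider region downstream. The share in genes was 23.85% with no other region within 5000 bp, 29.8% with genes extended by 5 kb and 29.1% with other regions under a score of 100 ignored. Asking for absence from the Ubc9-control list alone gave 27.4% in genes, 20.1% at gene ends, a median gene length of 68.5 kb and a highest rate of 3.88 per Mb (chromosome 13). The causes were not tested. A pair window of 4.5 to 7.0 kb, added after seeing the data, gave 131 pairs. Of 92 recomputed list counts, 54 stayed within 1.5 times.

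No paired analysis was possible because each list pools both replicates and carries no replicate number. Leaving out a replicate was likewise not run, nor was the base composition of whole regions, since no genome was used here. Depth is unknown, so absence from a list is absence of a call.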

Other observations

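Of 1005 microRNA hairpins in the RefSeq table, 1 overlapped a new intragenic region. It was Mir432, inside Rtl1, a retrotransposon-derived imprinted gene on chromosome 12, under a region of score 190.2 (chr12:109594707-109595250). In RefSeq pseudogenes lay 9 of the new intragenic regions, 0.356%, against 0.453% of the shared regions in genes.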
